A study of Homo sapiens with 12 samples.

Results

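The transcripts of 10 human selenoproteins, out of 10940 genes measured, were followed in HepG2 cells grown in 4 culture media. The 10 genes are SELENOW, GPX1, GPX2, GPX3, SELENOP, SELENOH, SELENOT, TXNRD1, SEPHS2 and SELENOS, taken from the count table by gene symbol. A list of human selenoprotein genes held 25 names, of which 20 were in the table. All 10 genes passed the filter on low counts that left 10459 genes to test, and the lowest count of any of them in a library was 9, for SELENOH.

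HepG2 is a human liver cancer cell line, and these were wild-type cells of that 1 line. They were seeded in EMEM, the maintenance medium, moved after 24 h to the medium under study, given fresh medium after 48 h and harvested 96 h after the move. RNA was read at the 3′ end of transcripts in 12 libraries, 3 for each medium. The Plasmax-TE+Fe cells received Plasmax, a medium modelled on human plasma, without its trace elements and with iron added back, and the Plasmax-TE cells received it without trace elements or added iron. The Plasmax cells received the full medium, and the EMEM cells stayed in EMEM. All 4 media carried 10% heat-inactivated fetal bovine serum, which itself brings some selenium, and the labels give neither the make-up of the trace element mix nor any selenium concentration. Nothing in the labels says that the replicates are independent cultures, and the p-values below therefore cover only the scatter of these 12 libraries, part or all of which may be technical.

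Selenoproteins carry selenocysteine, an amino acid that ribosomes insert at a UGA codon, which otherwise ends translation. Insertion needs a stem-loop in the transcript's 3′ end (the SECIS element), the protein SECISBP2 that binds it, the elongation factor EEFSEC and a dedicated tRNA. When selenium is short, the UGA of some selenoprotein transcripts is treated as a premature stop and the transcript is degraded by nonsense-mediated decay, so that selenoproteins are kept or lost in a known order. In the liver, SELENOP is made for export and carries selenium to other organs, and GPX1 is an abundant selenium-dependent enzyme. The steps of this pathway were not measured here.

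The selenocysteine codon of 6 of the 10 genes is shown because the genes that fell and those that rose are compared further on by its place in the transcript. The sequences are spliced coding sequence from the GENCODE 29 annotation of GRCh38, 30 bases on either side of the first selenocysteine codon where the coding sequence reaches that far, 5′ to 3′ on the gene's own strand, with the codon TGA in capitals.
SELENOW: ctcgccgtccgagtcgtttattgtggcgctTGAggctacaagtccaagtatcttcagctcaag
GPX1: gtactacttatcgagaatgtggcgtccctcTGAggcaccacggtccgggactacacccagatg
GPX3: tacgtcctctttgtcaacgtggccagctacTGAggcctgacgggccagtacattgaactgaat
SELENOP: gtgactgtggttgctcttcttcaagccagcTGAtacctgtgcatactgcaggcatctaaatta
SEPHS2: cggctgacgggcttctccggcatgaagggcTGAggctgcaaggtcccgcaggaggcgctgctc
TXNRD1: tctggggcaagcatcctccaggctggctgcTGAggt

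The SELENOW codon lies at chr19:47780732-47780734 on the plus strand in exon 2 of 5, and encodes residue 13 of 87. The GPX1 codon lies at chr3:49358132-49358134 on the minus strand in exon 1 of 2, and encodes residue 49 of 203. The GPX3 codon lies at chr5:151025469-151025471 on the plus strand in exon 2 of 5, at residue 73 of 226. SELENOP differs from the others in holding 10 selenocysteine codons, the first at chr5:42808177-42808179 on the minus strand in exon 2 of 5. The SEPHS2 codon lies at chr16:30445548-30445550 on the minus strand in a gene of 1 exon. The TXNRD1 codon, at chr12:104348413-104348415 on the plus strand, stands in the last of 15 exons, 1 codon before the end of the protein, which is why its sequence above is short. The base after the codon was G in 8 of the 10 genes, C in SELENOH and T in SELENOP. The counts were made on the hg19 build, so no coordinate of theirs is set against these.

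Totals ran from 1562125 to 2384090 counts per library, so 1 count was worth 0.419 to 0.640 CPM (the count divided by its library's total and scaled to the same size for all, the level used below). Replicate 1 of Plasmax-TE and replicate 2 of Plasmax-TE+Fe stood apart from the other 4 libraries made without trace elements: 23.2% of all genes tested were higher in both of them than in any of those 4, and 12.9% were lower. These libraries carry the numbers 87 and 88, in the same run of consecutive library numbers. Leaving out the pair and the library-number block used below are therefore not separate checks. Of the 10 selenoproteins, GPX1, GPX2 and SEPHS2 were higher and SELENOP and SELENOT lower in that pair, and calls of the 10 genes that change without the pair are given with and without it below. All 8 hepatocyte markers (ALB, AFP, APOA1, APOB, TTR, SERPINA1, HNF4A and TF) were measured, as the label of a hepatic line calls for, while no endothelial marker was among the genes analysed here. Of 4 leukocyte markers, CD68 (at low counts) and LYZ were measured, and their sum, nearly all of it LYZ, ran from 1005 to 1722 CPM in Plasmax-TE+Fe, 784 to 1667 in Plasmax-TE, 1229 to 1684 in Plasmax and 2110 to 2502 in EMEM. LYZ was lower than in EMEM in Plasmax (log2 fold change -0.70) and in Plasmax-TE (-0.84). In Plasmax-TE+Fe against EMEM it had -0.73, which DESeq2 and limma-voom called and edgeR did not. Of 5 fibroblast or stellate markers, COL1A1 and ACTA2 were measured, and ACTA2 was lower in Plasmax-TE+Fe than in Plasmax (-1.06) and higher in Plasmax than in EMEM (0.93). The part of these shifts in the selenoprotein values was not tested.

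Without trace elements, SELENOW and GPX1 fell while SEPHS2, GPX3 and SELENOP rose, against full Plasmax. These 5 of the 10 selenoproteins passed the test in Plasmax-TE against Plasmax, 2 of them lower and 3 higher, where 11.2% of all genes tested passed, 5.63% lower and 5.61% higher. The other 5 did not pass. The test here and below was edgeR's quasi-likelihood test on the counts with Benjamini-Hochberg adjustment over all 10459 genes, called at an adjusted p under 0.05. In bulk RNA, fewer cells of a kind and less RNA per cell cannot be told apart.

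SELENOW, a small thioredoxin-like redox protein, had the largest change of the 10. It stood at 37.7, 29.6 and 51.3 CPM in the Plasmax-TE libraries and at 123.5, 136.9 and 223.1 CPM in the Plasmax libraries. Every library without trace elements lay below every Plasmax library, and the 3rd Plasmax library was well above the other two. The log2 fold change was -2.04 ± 0.24 (SE; 95% interval -2.54 to -1.53), a level 0.243 times that in Plasmax, with an adjusted p of 3.1e-05 in edgeR's quasi-likelihood test. Leaving out any 1 of the 6 libraries kept the call, with log2 fold changes between -2.31 and -1.68.

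GPX1, the cytosolic glutathione peroxidase that reduces hydrogen peroxide, stood at 90.2, 74.9 and 65.9 CPM in Plasmax-TE and at 106.3, 121.2 and 103.2 CPM in Plasmax. The groups did not overlap, but the gap between them was small beside that of SELENOW. GPX1 had a log2 fold change of -0.52 ± 0.16 (SE), with an adjusted p of 0.042 in edgeR's quasi-likelihood test. That call was the least secure of the 5: the edgeR adjusted p was 0.055 with library size alone as scaling, 0.064 with the replicate number as a block, 0.061 with the 6 libraries of these media alone, and 0.069, 0.134 and 0.062 without Plasmax replicate 1, 2 or 3. It was 0.11 and 0.136 without Plasmax-TE replicate 2 or 3, and it held at 0.044 without Plasmax-TE replicate 1 and at 0.019 without the pair of libraries that stood apart.

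SELENOT, SELENOH and TXNRD1 had lower means without trace elements and did not pass. SELENOT, a thioredoxin-like protein of the endoplasmic reticulum, averaged 65.0 ± 2.96 CPM in Plasmax-TE and 88.3 ± 12.5 CPM in Plasmax (SD, n = 3 each). Its libraries did not overlap, which was so of 15.4% of all genes in that direction, and its log2 fold change of -0.43 had a 95% interval of -0.76 to -0.10 and an adjusted p of 0.087 in edgeR's quasi-likelihood test. With the 3 runs of consecutive library numbers as a block it passed, at an edgeR adjusted p of 0.042. SELENOH, a nuclear redox protein, was counted too thinly to place: it averaged 9.80 ± 5.14 CPM in Plasmax-TE and 14.5 ± 3.10 CPM in Plasmax (SD, n = 3 each), and the interval of its log2 fold change ran from -1.32 to 0.18.

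TXNRD1, the cytosolic thioredoxin reductase, stood at 52.5, 58.8 and 58.1 CPM in Plasmax-TE and at 101.1, 82.5 and 42.6 CPM in Plasmax. The 3rd Plasmax library lay below all the Plasmax-TE libraries and the other two above them, so the groups overlapped. The log2 fold change of -0.38 had a 95% interval of -0.85 to 0.09 and an adjusted p of 0.29 in edgeR's quasi-likelihood test. Without Plasmax replicate 3 it was -0.66, with an edgeR adjusted p of 0.034.

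SEPHS2, GPX3 and SELENOP were higher without trace elements. SEPHS2 makes selenophosphate, the selenium donor for selenocysteine, and is itself a selenoprotein. It stood at 354.4, 266.5 and 261.7 CPM in Plasmax-TE and at 157.5, 151.5 and 145.0 CPM in Plasmax, with no overlap and a narrow spread in Plasmax. Its log2 fold change was 0.96 ± 0.16 (SE), a level 1.95 times that in Plasmax, with an adjusted p of 7.1e-04 in edgeR's quasi-likelihood test. It was 0.85 without the pair of libraries that stood apart, of which the Plasmax-TE one was the highest.

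GPX3, the glutathione peroxidase secreted into plasma, stood at 34.2, 33.7 and 39.2 CPM in Plasmax-TE and at 16.0, 15.1 and 16.2 CPM in Plasmax. All Plasmax-TE libraries lay above all Plasmax libraries, as was so of 15.0% of all genes in that direction. Its log2 fold change was 1.18 ± 0.24 (SE), a level 2.27 times that in Plasmax, with an adjusted p of 0.0030 in edgeR's quasi-likelihood test. The calls of SEPHS2 and GPX3 held whichever 1 of the 6 libraries was left out.

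SELENOP stood at 646.5, 992.6 and 1014.7 CPM in Plasmax-TE and at 656.8, 520.8 and 467.7 CPM in Plasmax. Plasmax-TE replicate 1, from the pair that stood apart, lay below the highest Plasmax library, so the groups overlapped. SELENOP had a log2 fold change of 0.71 ± 0.19 (SE), with an adjusted p of 0.020 in edgeR's quasi-likelihood test, and 0.92 with an edgeR adjusted p of 1.1e-04 without that pair. The call was lost at an edgeR adjusted p of 0.11 and 0.064 without Plasmax replicate 2 or 3, and at 0.080 and 0.088 without Plasmax-TE replicate 2 or 3.

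Hepatocyte markers, most of them secreted proteins as SELENOP and GPX3 are, also differed between these libraries. Of the 8 hepatocyte markers, 4 were higher in Plasmax-TE than in Plasmax (ALB, AFP, TF and APOA1) and SERPINA1 was lower, and their summed level ran from 19073 to 22338 CPM in Plasmax-TE and from 10125 to 11131 CPM in Plasmax. ALB, the main plasma protein, had a log2 fold change of 1.41 ± 0.11 (SE), with an adjusted p of 3.3e-07 in edgeR's quasi-likelihood test. None of the 8 was at 0. The part of this shift in the selenoprotein values was not tested.

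GPX2 and SELENOS had the smallest differences of the 10 in this comparison and did not pass. GPX2, a glutathione peroxidase of epithelia, averaged 195 ± 21.2 CPM in Plasmax-TE and 181 ± 25.9 CPM in Plasmax (SD, n = 3 each), with a log2 fold change of 0.10 and a 95% interval of -0.25 to 0.46. SELENOS, an endoplasmic reticulum membrane protein of the pathway that removes misfolded proteins, averaged 87.5 ± 9.37 CPM in Plasmax-TE and 75.1 ± 15.9 CPM in Plasmax (SD, n = 3 each), with an interval of -0.10 to 0.58. Neither interval reached a 2-fold change (1 on the log2 scale).

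**Figure D1:**
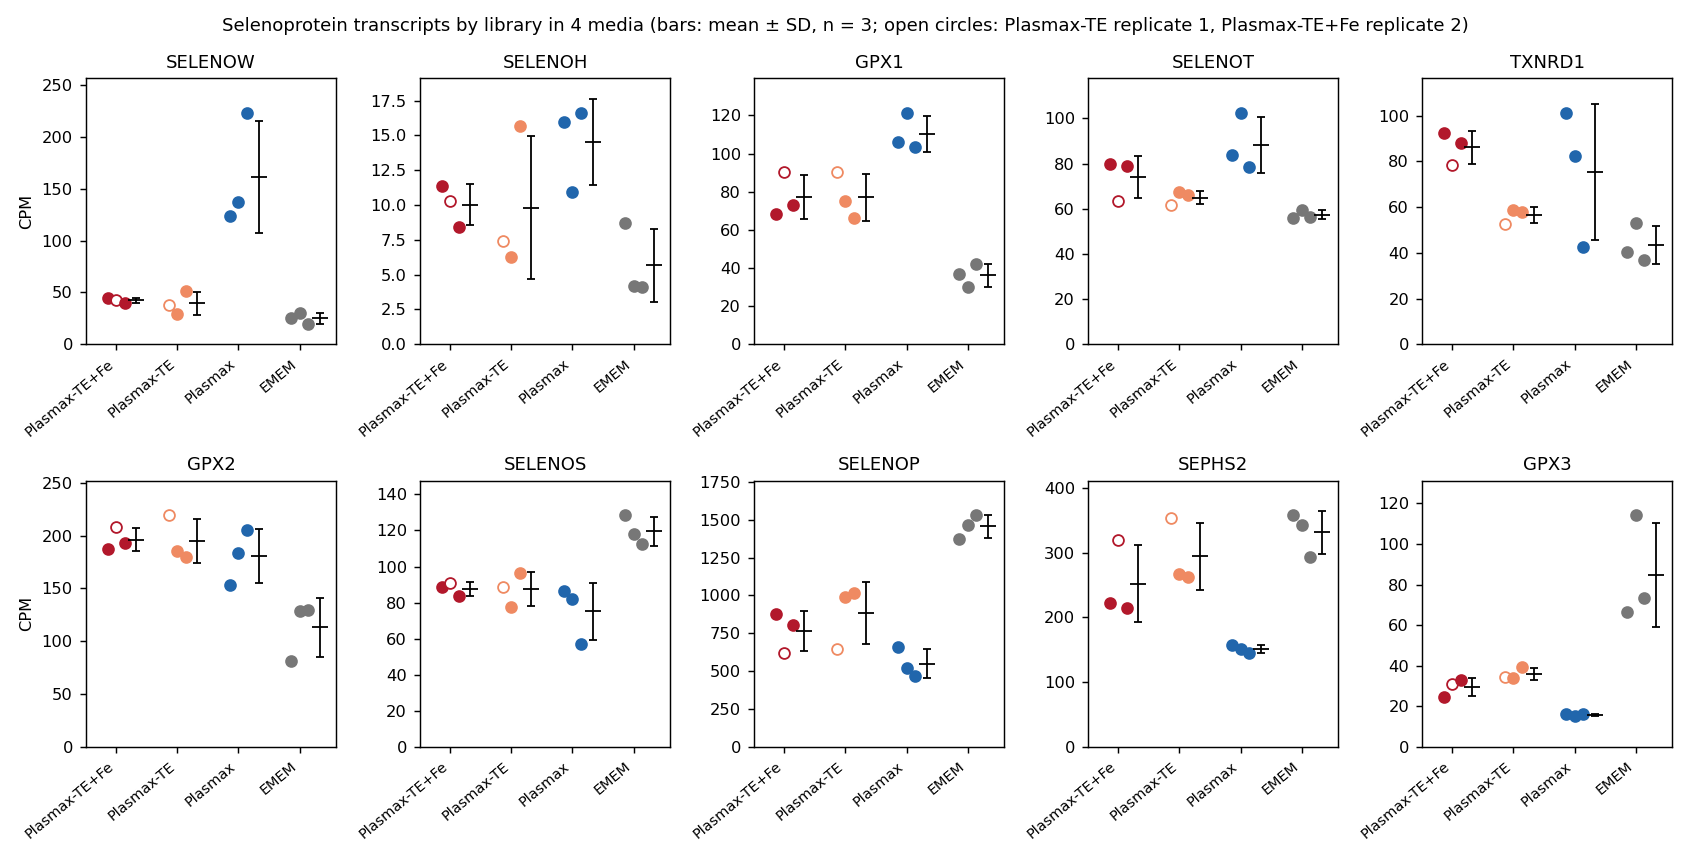
Level of each selenoprotein transcript in CPM (vertical axes, each from 0) in every library, by medium, with mean ± SD of 3 libraries beside the points; open circles are replicate 1 of Plasmax-TE and replicate 2 of Plasmax-TE+Fe. SELENOW averaged 42.6 CPM in Plasmax-TE+Fe, 39.5 in Plasmax-TE, 161 in Plasmax and 25.1 in EMEM, while SEPHS2, GPX3 and SELENOP had their lowest means in Plasmax.

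Adding iron back without the other trace elements left SELENOW low and SEPHS2 high against full Plasmax. These were the 2 of 10 selenoproteins that passed in Plasmax-TE+Fe against Plasmax, where 1.20% of all genes passed, 0.507% higher and 0.698% lower. This comparison shares its Plasmax libraries with the one above, so the 2 are not independent. SELENOW stood at 45.0, 42.7 and 40.2 CPM in Plasmax-TE+Fe, all under the lowest Plasmax library of 123.5 CPM. Its log2 fold change was -1.93 ± 0.24 (SE), with an adjusted p of 1.3e-04 in edgeR's quasi-likelihood test.

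SEPHS2 stood at 221.9, 320.1 and 214.6 CPM in Plasmax-TE+Fe, all above the highest Plasmax library of 157.5 CPM. SEPHS2 had a log2 fold change of 0.73 ± 0.16 (SE), with an adjusted p of 0.023 in edgeR's quasi-likelihood test. The 320.1 CPM library is the one of the pair that stood apart, and without both of the pair the log2 fold change was 0.56, with an edgeR adjusted p of 0.029. The call was lost without Plasmax replicate 1, 2 or 3 (edgeR adjusted p 0.062, 0.146 and 0.065), without Plasmax-TE+Fe replicate 2 alone (0.101), and with the 6 libraries of these media alone (0.063).

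GPX1, GPX3 and SELENOP did not pass in Plasmax-TE+Fe against Plasmax. GPX1 averaged 77.1 ± 11.7 CPM in Plasmax-TE+Fe and 110 ± 9.61 CPM in Plasmax (SD, n = 3 each), without overlap, and its log2 fold change of -0.52 had a 95% interval of -0.85 to -0.19 and an edgeR adjusted p of 0.14. GPX3 averaged 29.3 ± 4.40 CPM in Plasmax-TE+Fe and 15.8 ± 0.54 CPM in Plasmax (SD, n = 3 each), also without overlap, with a log2 fold change of 0.88 (95% interval 0.39 to 1.38) and an edgeR adjusted p of 0.079. With the library numbers as a block, GPX3 passed at an edgeR adjusted p of 0.034. SELENOP averaged 765 ± 133 CPM in Plasmax-TE+Fe and 548 ± 97.5 CPM in Plasmax (SD, n = 3 each), and its edgeR adjusted p of 0.24 became 0.011 without the pair of libraries that stood apart. Among all genes, libraries without overlap made up 8.67% in the higher and 9.70% in the lower direction.

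None of the 10 selenoproteins passed in Plasmax-TE+Fe against Plasmax-TE, the direct test of iron, where 0.258% of all genes (27) passed, 0.0861% higher and 0.172% lower, in edgeR's quasi-likelihood test. DESeq2 and limma-voom also called none of the 10, and 1 of the 10, TXNRD1, had an unadjusted edgeR p under 0.05. TXNRD1 stood at 92.5, 78.4 and 87.9 CPM in Plasmax-TE+Fe and at 52.5, 58.8 and 58.1 CPM in Plasmax-TE. The groups did not overlap, as was so of 6.91% of all genes in that direction. Its log2 fold change of 0.61 had a 95% interval of 0.14 to 1.07 and an edgeR adjusted p of 0.35.

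For the 5 genes that changed without trace elements, the difference between Plasmax-TE+Fe and Plasmax-TE is given by its interval. The 95% interval of the log2 fold change was -0.43 to 0.64 for SELENOW and -0.34 to 0.33 for GPX1. It was -0.55 to 0.09 for SEPHS2, -0.61 to 0.17 for SELENOP and -0.75 to 0.15 for GPX3. The deviations of these 2 media went together within runs of consecutive library numbers. With those runs as a block, 152 of all genes passed and again none of the 10, and the intervals narrowed to -0.34 to 0.58 for SELENOW, -0.32 to 0.31 for GPX1, -0.49 to 0.02 for SEPHS2, -0.55 to 0.12 for SELENOP and -0.71 to 0.12 for GPX3. Within each run the Plasmax-TE+Fe library lay below the Plasmax-TE library for SEPHS2 (320.1 against 354.4, 214.6 against 266.5 and 221.9 against 261.7 CPM) and for SELENOP (617.0 against 646.5, 804.1 against 992.6 and 873.9 against 1014.7 CPM), with edgeR adjusted p-values of 0.437 and 0.637 under the block. GPX3 was lower in all 3 Plasmax-TE+Fe libraries (24.4, 30.8 and 32.8 CPM) than in any Plasmax-TE library, as were 6.52% of all genes, with an edgeR adjusted p of 0.74.

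**Figure D2:**
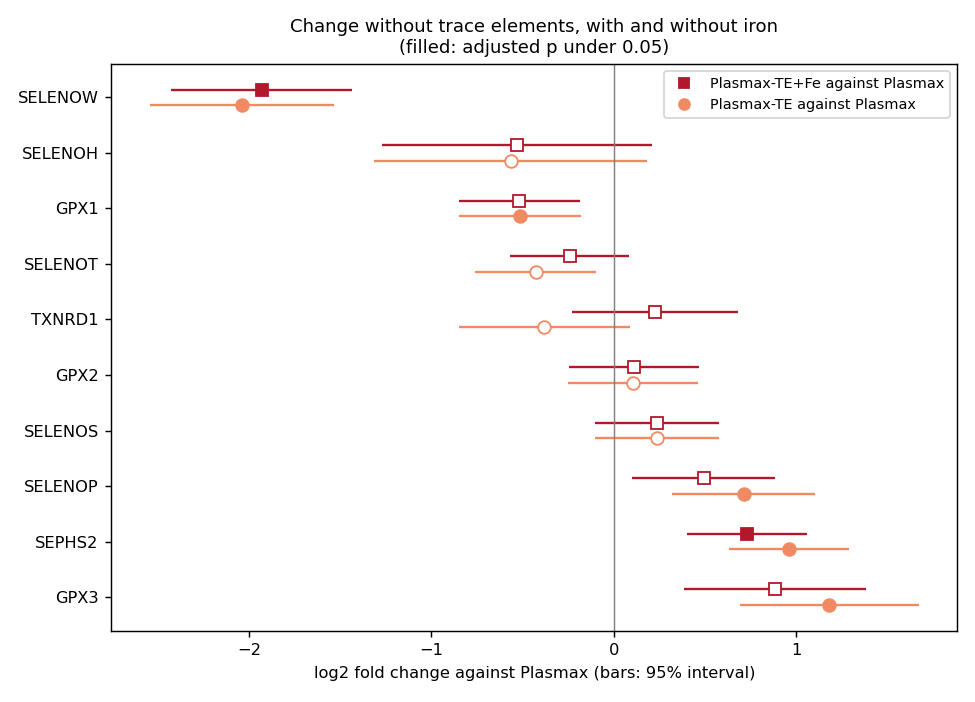
Log2 fold change of each selenoprotein against Plasmax (horizontal axis; bars are 95% intervals), for Plasmax-TE+Fe (squares) and Plasmax-TE (circles), filled where the edgeR adjusted p was under 0.05. SELENOW stands at -1.93 with iron and -2.04 without it, and TXNRD1 has its squares and circles on opposite sides of 0, neither filled.

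All 10 selenoproteins passed in Plasmax against EMEM, 6 higher and 4 lower, where 21.4% of all genes passed, 9.90% higher and 11.5% lower. The 10 genes were chosen with results of these libraries known, so nothing is read from their count. Plasmax had more SELENOW, GPX1, SELENOH, TXNRD1, GPX2 and SELENOT and less GPX3, SELENOP, SEPHS2 and SELENOS than EMEM. The Plasmax libraries enter this comparison and those above with opposite sign, so an opposite direction is in part built in.

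SELENOW averaged 161 ± 54.0 CPM in Plasmax and 25.1 ± 5.33 CPM in EMEM (SD, n = 3 each), with single EMEM libraries at 25.5, 30.2 and 19.6 CPM. Its log2 fold change of 2.65 ± 0.25 (SE) had an adjusted p of 5.8e-07 in edgeR's quasi-likelihood test. GPX1 averaged 110 ± 9.61 CPM in Plasmax and 36.1 ± 6.06 CPM in EMEM (SD, n = 3 each), a log2 fold change of 1.56 ± 0.17 (SE). The groups of both genes were far apart.

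GPX3 had the largest fall, with 15.8 ± 0.54 CPM in Plasmax and 84.7 ± 25.7 CPM in EMEM (SD, n = 3 each), where its libraries spread widely at 66.7, 114.1 and 73.3 CPM. Its log2 fold change was -2.48 ± 0.22 (SE), a level 0.180 times that in EMEM, with an adjusted p of 2.3e-07 in edgeR's quasi-likelihood test. SELENOP averaged 548 ± 97.5 CPM in Plasmax and 1456 ± 77.2 CPM in EMEM (SD, n = 3 each), a log2 fold change of -1.47 ± 0.19 (SE). SEPHS2 averaged 151 ± 6.25 CPM in Plasmax and 331 ± 33.3 CPM in EMEM (SD, n = 3 each), with a log2 fold change of -1.18 ± 0.16 (SE). SELENOS fell by 0.73 on the log2 scale, to 75.1 ± 15.9 CPM in Plasmax, against 120 ± 8.11 CPM in EMEM (SD, n = 3 each).

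Hepatocyte markers were lower in Plasmax too: 6 of 8 fell and SERPINA1 rose, and their summed level ran from 10125 to 11131 CPM in Plasmax and from 32993 to 36224 CPM in EMEM. Their part in the fall of SELENOP and GPX3 was not tested.

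SELENOH, TXNRD1, GPX2 and SELENOT were higher in Plasmax by log2 fold changes of 1.37, 0.71, 0.62 and 0.57, and each of these calls was lost when some 1 library was left out. The edgeR adjusted p of SELENOH was 0.082, 0.083 and 0.067 without EMEM replicate 2, EMEM replicate 3 or Plasmax replicate 3. For TXNRD1 it was 0.097, 0.131, 0.19 and 0.094 without EMEM replicate 1, EMEM replicate 3, Plasmax replicate 1 or Plasmax replicate 2, and limma-voom gave 0.061. For GPX2 it was 0.092 and 0.069 without EMEM replicate 1 or Plasmax replicate 3. For SELENOT it was 0.054, 0.056 and 0.078 without EMEM replicate 1, EMEM replicate 3 or Plasmax replicate 2.

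Several selenoproteins still differed from EMEM in the media without trace elements. In Plasmax-TE+Fe against EMEM, which shares no library with Plasmax-TE against Plasmax, 5 of the 10 passed, 3 higher and 2 lower, where 9.65% of all genes passed, 3.67% higher and 5.98% lower. GPX1 stood at 68.1, 90.3 and 73.0 CPM in Plasmax-TE+Fe and at 36.8, 29.8 and 41.9 CPM in EMEM, with no overlap and a log2 fold change of 1.04 ± 0.17 (SE; edgeR adjusted p 4.8e-04). GPX2 rose by 0.73 and TXNRD1 by 0.94 on the log2 scale, but the call of GPX2 was lost without EMEM replicate 1 (edgeR adjusted p 0.067) and that of TXNRD1 without EMEM replicate 1 or 3 (0.051 and 0.067). GPX3 and SELENOP were lower, with log2 fold changes of -1.59 ± 0.20 and -0.97 ± 0.19 (SE), and both calls held whichever of the 6 libraries was left out. Of the 8 hepatocyte markers, 6 were lower here and none higher, with a median log2 fold change of -1.11, and their sum ran from 15014 to 16976 CPM in Plasmax-TE+Fe and from 32993 to 36224 CPM in EMEM. Their part in these falls was not tested.

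SELENOW, SEPHS2 and SELENOS did not pass in Plasmax-TE+Fe against EMEM, though each passed under some alternative. SELENOW averaged 42.6 ± 2.37 CPM in Plasmax-TE+Fe and 25.1 ± 5.33 CPM in EMEM (SD, n = 3 each), without overlap, as was so of 16.1% of all genes in that direction. The log2 fold change of 0.71 had a 95% interval of 0.16 to 1.27 and an edgeR adjusted p of 0.10, which became 0.035 with the 6 libraries of these media alone and 0.047 with the library numbers as a block. SEPHS2 averaged 252 ± 58.9 CPM in Plasmax-TE+Fe and 331 ± 33.3 CPM in EMEM (SD, n = 3 each), with an edgeR adjusted p of 0.069 that became 0.0024 without the pair of libraries that stood apart, 0.011 without Plasmax-TE+Fe replicate 2 alone and 0.012 with the library-number block. SELENOS averaged 87.7 ± 3.81 CPM in Plasmax-TE+Fe, with an edgeR adjusted p of 0.052 against EMEM, 0.042 with the 6 libraries alone and 0.027 with the library-number block.

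In Plasmax-TE against EMEM, 4 of the 10 passed, where 4.81% of all genes passed, 1.62% higher and 3.19% lower. GPX1 and GPX2 were higher, with log2 fold changes of 1.04 and 0.73, and GPX3 and SELENOP were lower, with -1.29 and -0.75, while 4 of the 8 hepatocyte markers were lower. GPX2 was lost without EMEM replicate 1 (edgeR adjusted p 0.104). SELENOP was lost without EMEM replicate 1, 2 or 3 (0.054, 0.071 and 0.093) or Plasmax-TE replicate 1 (0.082). The SELENOW log2 fold change of 0.61 had a 95% interval of 0.04 to 1.17, and that of SEPHS2 was -0.22, with an interval of -0.54 to 0.10. SELENOS, with an edgeR adjusted p of 0.083, passed at 0.044 with the library-number block. Over the 4 media together, 8 of the 10 differed, where 18.0% of all genes did, and SELENOH and SELENOT did not pass (edgeR adjusted p 0.089 and 0.060). SELENOT passed with library size alone (0.035) and without the pair of libraries that stood apart (0.019), which made 9, and both passed with the library-number block (SELENOH 0.039, SELENOT 0.022), which made 10. Without EMEM replicate 1 the count was 5, GPX2, TXNRD1 and SELENOS being lost at 0.107, 0.073 and 0.075.

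The genes that fell and those that rose without trace elements were set side by side for the place of the selenocysteine codon. A premature stop is known to trigger nonsense-mediated decay when it lies far enough upstream of the last exon junction, and 55 bases was the bound used. Both genes that fell have such a codon: it lies 144 bases upstream of that junction in SELENOW and 105 bases upstream in GPX1, counted in the transcript ranked first for each gene. Transcripts were ranked by a complete coding sequence, then by the annotation's principal label and support level, and only then by coding length. Of the genes that rose, SEPHS2 has no junction at all, but GPX3 and SELENOP have first codons 240 and 357 bases upstream. In other annotated transcripts the GPX3 distance is as low as 22 bases and the SELENOP distance as low as 26.

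Among the 5 selenoproteins that did not pass, the codon is 470 bases upstream in SELENOT, 136 in SELENOH and 102 in GPX2, against 13 in SELENOS, and in TXNRD1 it lies 63 bases past the last junction. The 7 genes of the 10 with a codon more than 55 bases upstream had a median log2 fold change of -0.43 in Plasmax-TE against Plasmax, with 2 lower and 2 higher, and the other 3 a median of 0.24, with 1 higher. Over the 18 tested genes of the wider list the medians were -0.21 for 11 genes and 0.24 for 7. In the transcripts ranked first, the genes with a codon beyond the bound include 2 that fell and 2 that rose. Which transcripts these cells express cannot be read from 3′ counts.

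**Figure D3:**
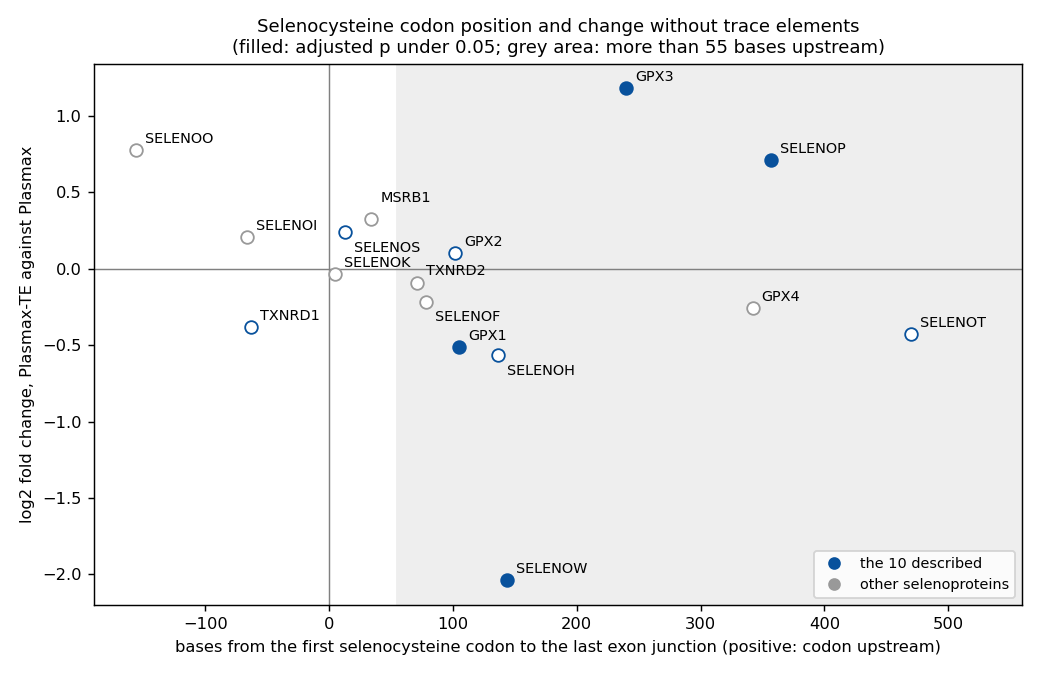
Log2 fold change in Plasmax-TE against Plasmax (vertical axis) by the distance in bases from the first selenocysteine codon to the last exon junction (horizontal axis, positive where the codon is upstream), for selenoprotein genes tested; SEPHS2, with 1 exon, has no distance, and SELENON, at 1221 bases, lies past the axis. GPX3 and SELENOP stand above 0 and SELENOW and GPX1 below it, all 4 in the grey area of more than 55 bases.

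Outside the 10, none of the 8 further selenoproteins tested passed without trace elements, where 11.2% of all genes passed. The 10 were chosen with results of these libraries known, so nothing is read from this count. In Plasmax-TE against Plasmax the log2 fold changes of the 8 ran from -0.26 for GPX4, the peroxidase that repairs lipid peroxides, to 0.78 for SELENOO, a mitochondrial protein. SELENOO had an unadjusted edgeR p under 0.05, alone of the 8, and DESeq2 and limma-voom called none of them, nor did edgeR with the library-number block. The 18 selenoproteins together had a median log2 fold change of -0.06, beside 0.02 over all genes. In Plasmax against EMEM, where 21.4% of all genes passed, SELENOO was the only one of the 8 to pass. It had a log2 fold change of -1.31 ± 0.35 (SE) and an edgeR adjusted p of 0.011, at 8 to 11 counts in the Plasmax libraries. DIO1, the liver deiodinase that activates thyroid hormone, was too thinly counted to test. It had 5, 2 and 2 counts in the Plasmax-TE+Fe libraries, 5, 9 and 5 in Plasmax-TE, 1 in each Plasmax library and 9, 13 and 9 in EMEM. Without the pair of libraries that stood apart DIO1 passed the count filter and was called higher in Plasmax-TE and lower in Plasmax against EMEM, where SELENOI joined SELENOO.

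The genes that make and insert selenocysteine did not pass without trace elements. Of 16 tested, none was called in Plasmax-TE against Plasmax by edgeR, DESeq2 or limma-voom, where edgeR called 11.2% of all genes. SECISBP2 and SEPHS1 had unadjusted edgeR p-values under 0.05. The log2 fold change was 0.45 (95% interval 0.09 to 0.82) for SECISBP2 and 0.40 (0.02 to 0.77) for SEPHS1, a relative of SEPHS2 that holds no selenocysteine. With the library-number block SECISBP2 passed, higher in Plasmax-TE, alone of the 16. It was 0.61 for SCLY, which frees selenium from selenocysteine, and 0.43 for EEFSEC. PSTK and SEPSECS, which charge the tRNA, had 0.09 and 0.15, with intervals nearly 1 wide on either side. The list's median was 0.09. In Plasmax against EMEM, 2 of the 16 passed, beside 21.4% of all genes. They were the RNA-binding protein NCL at 0.40 and the export factor XPO1 at 0.57. With iron present, none of the 16 was called in Plasmax-TE+Fe against Plasmax or against Plasmax-TE by edgeR, DESeq2 or limma-voom. In the same order, edgeR called 1.20% and 0.258% of all genes, and the unadjusted edgeR p was under 0.05 for 2 and 0 of the 16.

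Of 21 peroxide enzymes and cysteine-bearing relatives of selenoproteins, 4 passed in Plasmax-TE against Plasmax, 3 lower and 1 higher, beside 5.63% of all genes lower and 5.61% higher, and the list's median log2 fold change was -0.05. GPX8 and GPX7 are relatives of GPX1 in the endoplasmic reticulum that use cysteine. GPX8 had 0, 1 and 2 counts in Plasmax-TE and 18, 15 and 14 counts in Plasmax (edgeR adjusted p 0.0024), and GPX7 had 19, 10 and 15 counts in Plasmax-TE and 5, 2 and 2 counts in Plasmax (edgeR adjusted p 0.0086). The groups of each gene lay apart, though at counts too low for their folds to be precise. MSRB3, a methionine sulfoxide reductase, and GLRX, a glutaredoxin, were lower by log2 fold changes of -0.97 ± 0.30 and -0.89 ± 0.24 (SE). DESeq2 and limma-voom each called 3 of the 21. Without the pair of libraries that stood apart 3 of the 21 were higher and 2 lower, with CAT and PRDX3 gained and MSRB3 lost. Under the library-number block 2 were higher and 4 lower, with CAT and GLRX2 gained, where 1859 of all genes passed.

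Of 24 targets of NRF2, the transcription factor of the oxidant response that also drives TXNRD1 and GPX2, 2 were lower in Plasmax-TE than in Plasmax and none higher, a share near the 5.63% of all genes that were lower. DESeq2 called 1 of them and limma-voom 2, and without the pair of libraries that stood apart 2 were lower and 2 higher (AKR1C2 and AKR1C3). Under the library-number block 2 were lower and 1 higher (AKR1C3). SLC7A11, the cystine importer, had a log2 fold change of -1.25 ± 0.35 (SE) and the autophagy adaptor SQSTM1 one of -0.88 ± 0.21 (SE), with edgeR adjusted p-values of 0.027 and 0.010. The list's median was -0.15, beside 0.02 over all genes. In Plasmax against EMEM, 4 of the 24 were higher, SLC7A11 among them at 1.27, and 3 were lower, all aldo-keto reductases (AKR1C1, AKR1C2 and AKR1C3), beside 21.4% of all genes called in either direction. DESeq2 called 5 of the 24 there and limma-voom 9, and edgeR without the pair 12. With iron present, none of the 24 and none of the 21 passed against Plasmax in edgeR, DESeq2 or limma-voom. In that comparison edgeR called only 1.20% of all genes, and 4 of the 24 and 5 of the 21 had an unadjusted edgeR p under 0.05. Without the pair, 4 of the 24 passed there, all aldo-keto reductases and all higher, and 1 of the 21, PRDX3, where 174 of all genes passed. Under the library-number block the same 4 of the 24 passed there, and 2 of the 21, GPX7 and SOD2. All of these were higher, where 372 of all genes passed.

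**Figure D4:**
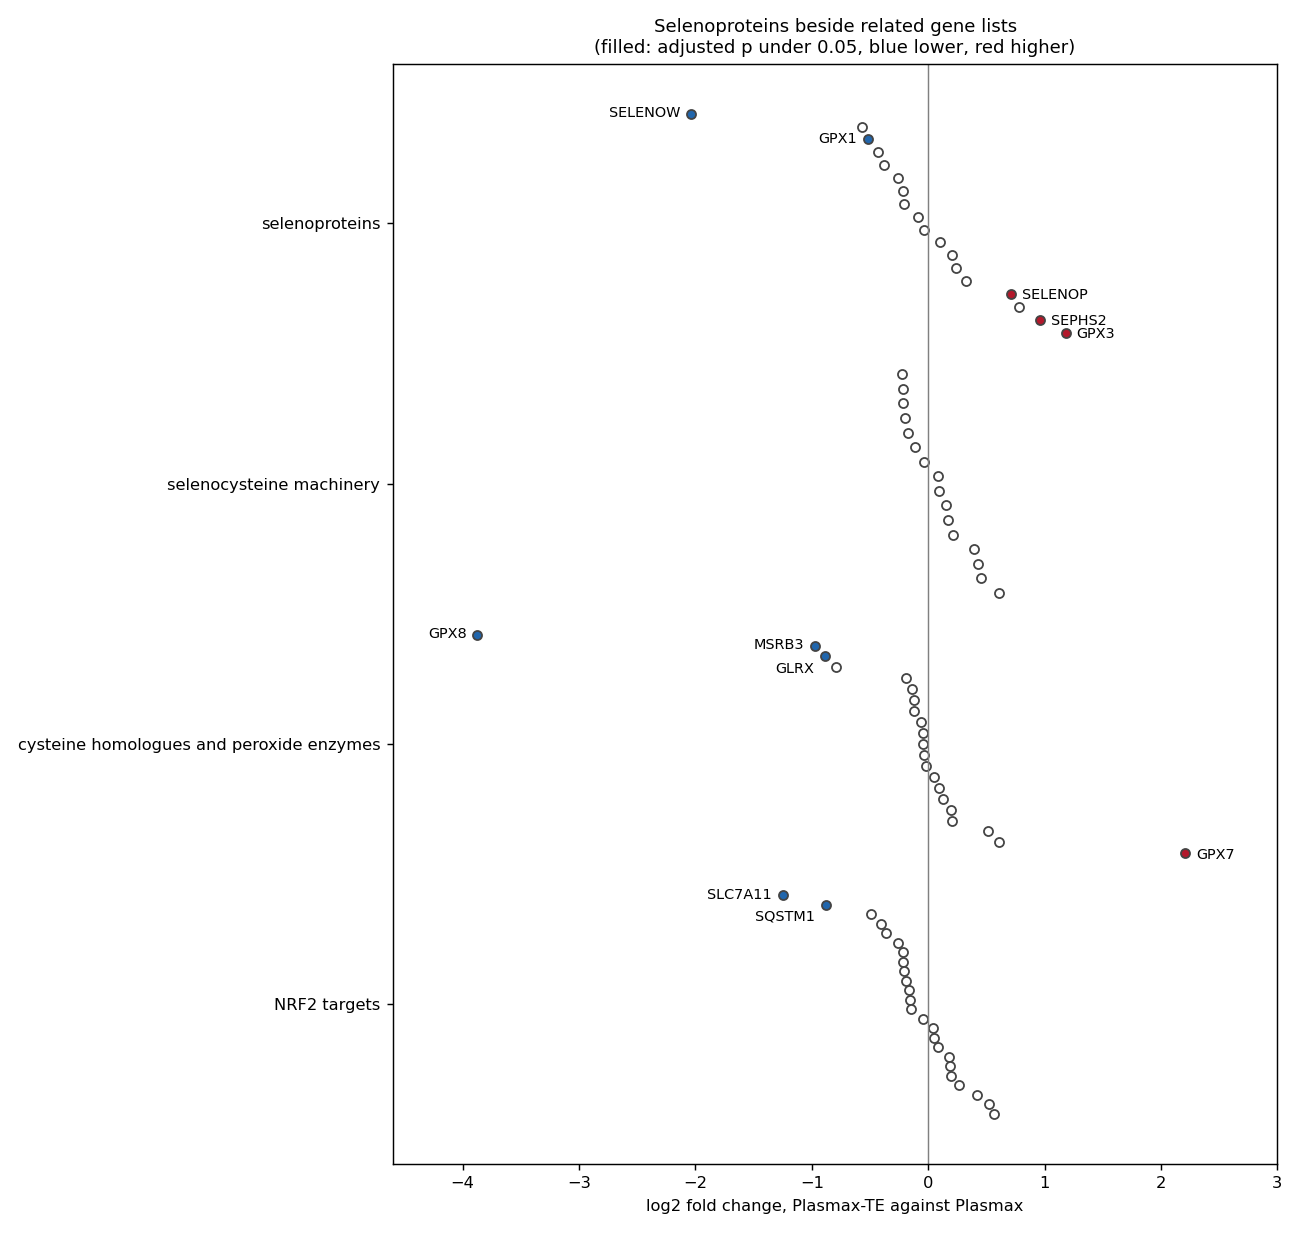
Log2 fold change in Plasmax-TE against Plasmax (horizontal axis) of each tested gene of the selenoproteins, the selenocysteine machinery, the cysteine homologues and peroxide enzymes, and the NRF2 targets, with each list sorted from low to high and filled points at an edgeR adjusted p under 0.05. The selenoproteins spread from -2.04 for SELENOW to 1.18 for GPX3, and no point of the machinery list, which leaves out SEPHS2, is filled.

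The genes whose pattern over the 12 libraries lay closest to that of SELENOW were RAB3B, TOMM34, LMCD1, BGN and SEL1L3. Closeness was the root mean square difference in log2 CPM after each gene was centred on its own mean, and all genes share the same libraries, so it is a description. RAB3B was nearest, at a difference of 0.35, and averaged 35.3 CPM in Plasmax-TE+Fe, 24.7 in Plasmax-TE, 105 in Plasmax and 15.5 in EMEM. TOMM34 followed at 0.42, and the other 3 lay at 0.47. BGN rests on few counts outside Plasmax, with means of 2.5 CPM in Plasmax-TE+Fe, 1.38 in Plasmax-TE, 10.1 in Plasmax and 0.583 in EMEM. SEL1L3 was also thin in EMEM, at 3.46 CPM. No other selenoprotein was among the 5.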

How the data were processed

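The authors deposited 1 table of raw read counts per gene for 12 libraries made with a 3′ mRNA kit. Per the submitters' processing notes, the tools were STAR 2.7.5b, cutadapt 1.16, FastQC 0.72, limma 3.40.6 and featureCounts 1.6.3, with the hg19 (GRCh37) build. The gene annotation and the strand setting of the counting are not given in the sources used here, so reads from overlapping antisense genes cannot be told apart. GENCODE 29 names pseudogenes of GPX1 (2), SELENOT (2), SELENOW (1) and SEPHS2 (1), whose reads could be shared. Of 10994 entries, 54 were surplus copies with identical counts and were dropped, which left 10940 genes, 20 of 25 listed selenoproteins among them. The others are not analysed here.

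Counts were fitted in 1 model with the 4 media as groups (edgeR 4.0.16, TMM scaling, filterByExpr with a minimum count of 10, quasi-likelihood test, 8 residual degrees of freedom, R 4.3.3), without a replicate block. P-values were adjusted over 10459 genes by Benjamini-Hochberg and called under 0.05. The SE of a log2 fold change was not taken from the fit directly. It is the size of the change divided by the square root of the F value of its quasi-likelihood test. Fold intervals are 95%, are built from that SE and cover the spread between libraries. An exact permutation test of 3 against 3 cannot go below 0.1, so none was used. On simulated counts for Plasmax-TE against Plasmax over 10459 genes, edgeR recovered 67 of 100 genes changed by 1 on the log2 scale and 91 of 100 changed by 2, with 8 false calls. In the simulation no other gene changed, only Plasmax-TE differed, and libraries shared no deviations. Its rates therefore need not hold for the data, where 1176 genes were called. Alternatives used DESeq2 1.42.0 and limma-voom (limma 3.58.1), other scalings and filters, blocks, and libraries left out. Replicate numbers paired libraries in Plasmax-TE against EMEM, where the deviations of same-numbered libraries correlated at 0.11 to 0.173, and the block left its count of calls at 4. No other comparison had every pair over 0.1 by replicate number. Runs of 4 consecutive library numbers, which place the Plasmax-TE+Fe libraries differently, correlated over 0.1 in every pair in Plasmax-TE+Fe against Plasmax-TE (0.217 to 0.534) and Plasmax-TE+Fe against EMEM (0.117 to 0.186) as well, and were used as an alternative block; the labels do not say what the numbers mark. Gene lists were recounted with that block and without the pair of libraries that stood apart, a choice made after seeing the data.

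The 10 selenoproteins, the gene lists and the pair of libraries called apart were chosen with earlier results of these data known. The text names all 10, the called selenoproteins outside them, the called genes of each other list with the lowest p (at most 5), a fixed few of the insertion machinery with GPX7 and GPX8, and the 5 genes closest to SELENOW. LYZ, ACTA2, DIO1 and ALB, and genes that joined a list under an alternative, were named after their values were seen. Leukocyte markers found were CD68 and LYZ, and fibroblast markers ACTA2 and COL1A1, which summed to 29.2 to 79.4 CPM in a library. Selenocysteine codons were taken from the selenocysteine positions annotated in GENCODE 29 on GRCh38, and each was checked to be an in-frame TGA codon. Library sizes were the sums of the deposited counts.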

Additional observations from a re-analysis of the deposited data

How the results depend on the processing

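Of 960 recalculated log2 fold changes of the 10 selenoproteins, 890 kept their direction and their side of the threshold, 38 lost a call, 12 gained one and 20 changed sign, none of those 20 being called. In Plasmax-TE+Fe against Plasmax-TE, library size alone gave 0.0007 for GPX1 and 0.0049 for SELENOS, limma-voom 0.0052 for SELENOS, and leaving out the pair of libraries that stood apart -0.12 for SELENOH. Leaving out 1 library at a time in that comparison gave ranges of -0.10 to 0.08 for GPX1, -0.0245 to 0.06 for GPX2, -0.22 to 0.59 for SELENOH, -0.082 to 0.11 for SELENOS and -0.0713 to 0.38 for SELENOW. It gave -0.0084 to 0.24 for GPX2 in Plasmax-TE against Plasmax, and -0.0024 to 0.25 for GPX2 and -0.0489 to 0.48 for TXNRD1 in Plasmax-TE+Fe against Plasmax. The count of selenoproteins called, leaving out 1 library at a time, was 3 to 5 in Plasmax-TE against Plasmax, 1 to 2 in Plasmax-TE+Fe against Plasmax, 0 to 0 in Plasmax-TE+Fe against Plasmax-TE, 7 to 9 in Plasmax against EMEM, 2 to 4 in Plasmax-TE against EMEM, 3 to 6 in Plasmax-TE+Fe against EMEM and 5 to 9 over the 4 media. The count of all genes called was 477 to 990, 31 to 97, 0 to 229, 1489 to 1996, 259 to 409, 606 to 1145 and 1275 to 2465 in the same order, against 1176, 126, 27, 2233, 503, 1009 and 1879 with every library. In Plasmax-TE+Fe against Plasmax-TE the count of all genes was 81 by DESeq2, 99 without the pair of libraries that stood apart, and 0 in edgeR with the 6 libraries alone. With the library numbers as a block, all genes called were 1859, 372 and 152 in the first 3 of these comparisons, 829 in Plasmax-TE against EMEM, 1569 in Plasmax-TE+Fe against EMEM and 2835 over the 4 media, and 8 selenoproteins passed in Plasmax-TE+Fe against EMEM. With the 6 libraries alone, Plasmax-TE+Fe against Plasmax had 77 genes and 1 selenoprotein called. The replicate block left 4 selenoproteins called in Plasmax-TE against Plasmax, GPX1 being lost at an edgeR adjusted p of 0.064, and changed no other call of the 10; same-numbered libraries correlated at 0.041 to 0.083 there. The causes of these changes were not tested. Where libraries were left out, their smaller number and the choice of library removed cannot be told apart. Depth limits SELENOH, SELENOO, PSTK, SEPSECS, SEL1L3, BGN, GPX7, GPX8 and DIO1 most, and 3 counts were worth 1.26 to 1.92 CPM.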
